A study of Mus musculus with 48 samples.

Results

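The effect of the DGAT1 inhibitor Cpd2 on skin RNA was compared between Study 1 and Study 2, in which the same compound was given to separate mice. All samples whose titles name Cmpd2 or Vehicle in either study were taken, which gave 24 of the 48 arrays, with 8 Cpd2 and 8 vehicle mice in Study 1 and 4 Cpd2 and 4 vehicle mice in Study 2. The mice were C57BL/6, labelled as 8 weeks old, and per the methods of the study they were males made obese on a high-fat diet and dosed by mouth for 14 days, with 30 mg/kg given where no other dose is named. The vehicle mice carried the same diet and dosing, so every group was obese, and a small skin biopsy per mouse was profiled on 1 custom Affymetrix array. The labels call it dorsal skin, but per the methods biopsies could also be ventral, so the site of each is uncertain. The labels tie no array to a scan, a day or a litter, so a difference in level between the 2 studies cannot be told apart from a difference in how the studies were run.

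DGAT1 joins a fatty acid to diacylglycerol, the last step in making triglyceride. In skin it is strong in the sebaceous gland, whose cells fill with triglycerides, wax esters and cholesterol esters and burst to form sebum, and inhibitors of the enzyme that reach the skin can shrink these glands. A biopsy of mouse skin also holds epidermis, hair follicles, dermal fat and, below it, a thin sheet of skeletal muscle, so a bulk array mixes the RNA of all of these. In such samples fewer cells of a type and less RNA per cell cannot be told apart.

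Values are log2 intensities, so that a difference of 1 is a 2-fold change, and the difference between studies is the effect of Cpd2 in Study 1 minus that in Study 2. Of the 28789 probesets tested, Cpd2 changed 5006 in Study 1, with 2758 higher (9.58%) and 2248 lower (7.81%), which is 17.4% of those tested. In Study 2 it changed 50, with 20 higher (0.0695%) and 30 lower (0.104%), or 0.174%. The effect passed the test in the same direction in both studies for 38 probesets (0.132%), of which 14 rose and 24 fell, and none passed in opposite directions. The difference between the effects passed for 209 probesets (0.726%), with 90 more positive in Study 1 (0.313%) and 119 more negative (0.413%). At an unadjusted p under 0.05 the difference passed for 4434 (15.4%).

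The counts of 209 and 38 depended on how the spread between mice was estimated. The fit above took it from all 48 arrays of the series. With the 24 arrays of the 2 studies alone, 1 unnamed probeset passed for the difference and no named gene did, and 18 probesets were shared. Without moderation these counts were 0 and 10, and with a spread taken from each group on its own both were 0, while 3346 and 3269 probesets passed for the difference at an unadjusted p under 0.05. The direction of the 209 could not change on the 24 arrays, because both fits use the same group means. All 209 had an unadjusted p under 0.05 there, which rests on the same mice and is no further evidence. Their adjusted p in the full fit ran from 0.00227 up to the threshold, with a median of 0.0403. Leaving out 1 mouse at a time gave 26 probesets without vehicle mouse 1 of Study 2 and 1521 without vehicle mouse 4 of Study 1. The differing genes below are therefore given with the number of these 24 fits, each without 1 mouse, in which the difference passed. Each of these fits still took the spread from all other arrays of the series, so this number does not bear on the pooling of the spread.

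**Figure D1:**
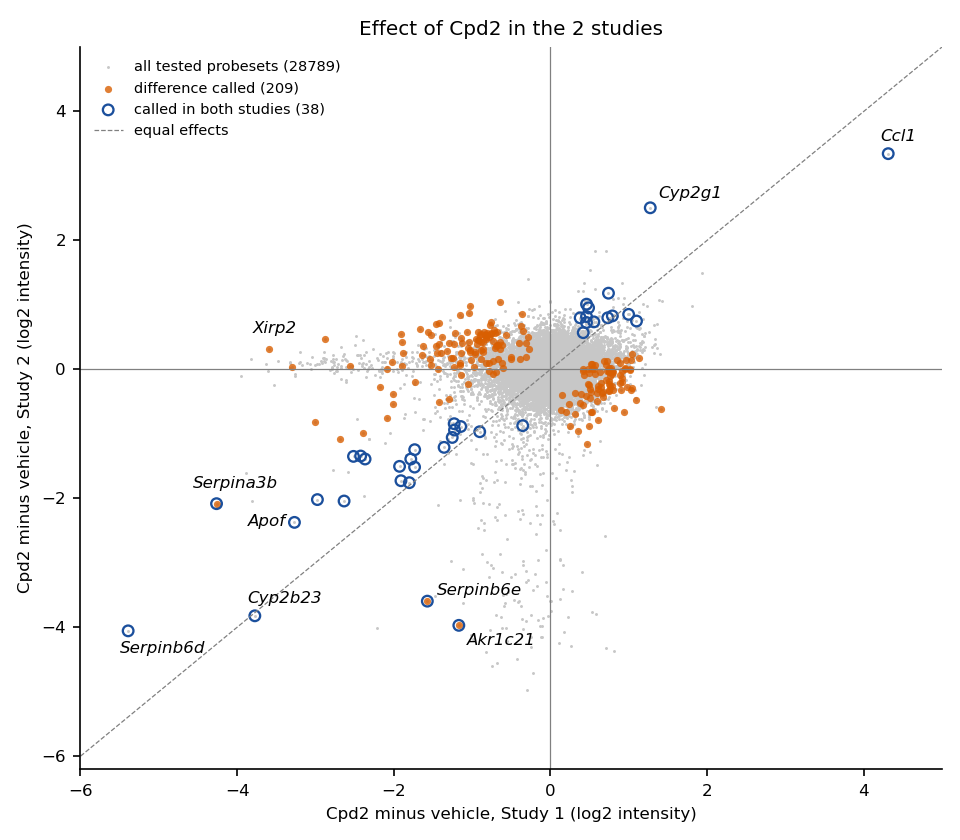
Effect of Cpd2 against vehicle in log2 intensity, with Study 1 on the x axis and Study 2 on the y axis, for the 28789 tested probesets (grey), the 209 whose difference between studies was called (orange) and the 38 called in both studies (blue rings), with the dashed line marking equal effects. Cyp2b23 lies near the dashed line, Ccl1 lies off it at 4.31 in Study 1 and 3.35 in Study 2, and Akr1c21, Serpinb6e and Serpina3b lie further off. Most orange points lie near 0 in Study 2.

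The shared probesets were 76.0% of all those called in Study 2 and 0.759% of those called in Study 1. All 20 probesets that rose in Study 2 were also higher in Study 1, and all 30 that fell there were also lower in Study 1, whether or not they passed the test. Of all tested probesets 53.2% had the same sign in both studies. For 21 of the 38 the 95% interval of the difference lay within 2-fold in either direction, which 79.9% of all tested probesets also met. For 3 the difference itself was called, and 14 met neither. Of the 38, 22 had the larger effect in Study 1. In 18 of them all Cpd2 mice lay on 1 side of all vehicle mice in both studies, against 62 of all tested probesets (0.215%). The 38 were chosen for differing between these same mice, so this separation is partly built in and is no further evidence.

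Serpins were among the strongest shared falls. Serpinb6d and Serpinb6e belong to clade B of the serpins, inhibitors of serine proteases that act mostly inside cells, and lie close together on chromosome 13. Their upstream sequences are shown because both genes fell in both studies while the larger fall was in a different study for each. The 250 bases before the first annotated start of Serpinb6d (GRCm38.p6, chr13:33661155-33661404, plus strand) and of Serpinb6e (chr13:33843409-33843658, minus strand) are given from RefSeq, 5′ to 3′, with capitals marking the hexamer AGGTCA or its reverse complement TGACCT, a half-site of many nuclear receptors.
Serpinb6d: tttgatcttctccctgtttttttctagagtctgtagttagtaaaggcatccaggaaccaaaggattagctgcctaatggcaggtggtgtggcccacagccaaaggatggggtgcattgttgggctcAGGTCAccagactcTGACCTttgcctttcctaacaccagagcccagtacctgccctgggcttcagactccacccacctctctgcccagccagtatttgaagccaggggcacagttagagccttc
Serpinb6e: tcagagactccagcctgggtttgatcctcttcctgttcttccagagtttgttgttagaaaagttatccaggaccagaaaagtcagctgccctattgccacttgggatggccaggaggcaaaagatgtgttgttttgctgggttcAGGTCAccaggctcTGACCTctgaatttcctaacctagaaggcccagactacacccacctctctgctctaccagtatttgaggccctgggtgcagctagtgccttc

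The windows were 78.7% identical over their aligned bases, and each held 2 copies of the hexamer, which face each other with 8 bases between them. On both strands together, 14.0% of the 32851 promoter windows of that length held at least 1 copy and 1.36% held at least 2. The arrangement of AGGTCA, 8 bases and TGACCT occurred in 3 windows, of which 2 belong to starts of Serpinb6d and 1 to Serpinb6e. This arrangement was looked for after these sequences had been read. A match of letters is a description and not a site. The genes are close in sequence, and how far the probes of one detect the RNA of the other was not tested.

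Serpinb6d had the largest fall of all shared genes. In Study 1 the vehicle mice ran from 9.15 to 10.89 with a median of 10.32, and the Cpd2 mice from 3.40 to 5.97 with a median of 4.85. In Study 2 the vehicle mice were at 7.86, 6.54, 8.18 and 6.88, and the Cpd2 mice at 2.39, 3.89, 3.75 and 3.19. The groups did not overlap in either study. The effect was -5.39 (SE 0.32, adjusted p = 6.91e-17) in Study 1 and -4.06 (SE 0.45, adjusted p = 8.90e-08) in Study 2. The difference of -1.34 (95% interval -2.44 to -0.23) missed the threshold at an adjusted p of 0.211. Vehicle mice of Study 1 were higher than those of Study 2 by 2.87 (adjusted p = 2.06e-05), so the 2 studies started from different levels of this gene. Whether the low values of the Cpd2 mice in Study 2 limited the fall there was not tested.

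Serpinb6e fell more in Study 2. In Study 1 the vehicle mice ran from 4.29 to 6.59 with a median of 5.73, and the Cpd2 mice from 2.54 to 5.14 with a median of 4.30. In Study 2 the vehicle mice were at 7.41, 6.42, 6.82 and 6.36, and the Cpd2 mice at 3.75, 3.27, 3.38 and 2.23. The groups overlapped in Study 1 and were apart in Study 2. The effect was -1.57 (SE 0.30) in Study 1 and -3.60 (SE 0.42) in Study 2, and the difference of 2.02 (95% interval 0.98 to 3.06, adjusted p = 0.0463) passed the test, in 9 of the 24 fits without 1 mouse.

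Akr1c21, an aldo-keto reductase that converts steroids, had the most positive difference of all named genes. In Study 1 the vehicle mice ran from 3.60 to 5.93 with a median of 4.76, and the Cpd2 mice from 2.94 to 4.90 with a median of 3.27. Vehicle mice of Study 2 were at 6.78, 6.02, 6.97 and 7.01, and the Cpd2 mice at 3.16, 2.32, 2.55 and 2.86. The groups overlapped in Study 1, where Cpd2 mouse 1 lay far above the other 7, and were apart in Study 2. The gene fell by 1.17 (SE 0.29, adjusted p = 0.00322) in Study 1 and by 3.97 (SE 0.41, adjusted p = 3.46e-08) in Study 2. The difference of 2.80 (95% interval 1.78 to 3.82) had an adjusted p of 0.00982 and passed in all 24 fits without 1 mouse. The Cpd2 mice of the 2 studies differed by 0.74 (adjusted p = 0.19), and the vehicle mice of Study 1 were lower than those of Study 2 by a difference of -2.06 (adjusted p = 0.00046). The Cpd2 values of Study 2 and the Cpd2 median of Study 1 lay near 2.93, the mean level under which probesets were left out as dim. Whether such low levels limited the size of the fall was not tested. On the 24 arrays alone the adjusted p of the difference was 0.171.

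Serpina3b, a secreted serpin of clade A, was the third gene that fell in both studies with a called difference. In Study 1 the vehicle mice ran from 10.23 to 11.51 with a median of 11.22, and the Cpd2 mice from 4.85 to 9.64 with a median of 6.64. The vehicle mice of Study 2 stood at 11.52, 11.26, 11.52 and 11.09, and its Cpd2 mice at 8.67, 9.07, 9.52 and 9.79. The groups were apart in both studies. The vehicle mice of the 2 studies differed by -0.31 (adjusted p = 0.69), while the Cpd2 mice of Study 1 were lower by a difference of -2.49 (adjusted p = 6.1e-05). The effect was -4.26 (SE 0.32) in Study 1 and -2.08 (SE 0.45) in Study 2, with a difference of -2.18 (95% interval -3.29 to -1.07, adjusted p = 0.0447) that passed in 7 of the 24 fits without 1 mouse. The shared call itself held in 17 of these.

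Cyp2b23, a cytochrome P450 of the CYP2B family, fell by nearly the same amount in both studies. Without the compound it ran from 7.89 to 9.50 (median 9.31) in Study 1 and stood at 8.81, 9.0, 9.08 and 8.60 in Study 2. Its Cpd2 mice ran from 3.64 to 7.48 (median 5.38) in Study 1 and stood at 5.14, 4.55, 5.33 and 5.19 in Study 2, below every vehicle mouse. The effect was -3.77 (SE 0.30) and -3.82 (SE 0.42), a difference of 0.05, although its 95% interval from -0.99 to 1.09 did not exclude a 2-fold change.

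Apof, an apolipoprotein that regulates lipid transfer between plasma lipoproteins, fell by 3.27 in Study 1 and by 2.37 in Study 2. In Study 1 vehicle mice ran from 4.54 to 6.67 and Cpd2 mice from 2.23 to 3.65. The vehicle mice of Study 2 were at 5.59, 5.02, 5.30 and 4.41 and the Cpd2 mice at 2.93, 2.79, 2.36 and 2.73. Both pairs of groups were apart, and the Cpd2 mice of the 2 studies differed by -0.02, while the vehicle mice differed by 0.87 (adjusted p = 0.0552). The Cpd2 values of Study 2 lay near or below 2.93, the level under which probesets were left out as dim. Whether such low levels limited the size of the fall was not tested for Apof either.

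Aox4, an aldehyde oxidase of sebaceous tissue that also oxidises retinal, fell by 2.97 and 2.02, and Aadacl4, of the arylacetamide deacetylase family of esterases, had effects of -2.63 and -2.04. Pnpla5, a triglyceride lipase of the patatin-like family, had effects of -2.51 in Study 1 and -1.35 in Study 2, with a difference of -1.16 (adjusted p = 0.094). Ces4a, a carboxylesterase, had effects of -2.37 and -1.39. Among enzymes of acyl-CoA, Acot1, a thioesterase, had effects of -1.22 and -0.94, and the peroxisomal oxidase Acox2 had effects of -1.78 and -1.39. The differences of Aox4, Aadacl4, Ces4a, Acot1 and Acox2 did not pass the test, with adjusted p values of 0.295, 0.524, 0.194, 0.542 and 0.655. Of these only the interval of Acot1, from -0.70 to 0.13, lay within 2-fold.

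Cyp1a1, the P450 best known as a target of the aryl hydrocarbon receptor, fell in both studies. Its vehicle mice ran from 6.49 to 8.05 (median 7.59) and its Cpd2 mice from 4.50 to 5.59 (median 5.04) in Study 1. The Study 2 vehicle mice were at 7.05, 6.89, 7.29 and 6.61 and the Cpd2 mice at 5.41, 5.40, 5.67 and 5.98. The groups were apart in both studies. The effect was -2.42 in Study 1 and -1.34 in Study 2, and the difference of -1.08 (95% interval -1.67 to -0.49) had an adjusted p of 0.0563. Another gene of the same receptor's list, Aldh3a1, an aldehyde dehydrogenase, rose in both studies, by 0.46 and 0.73.

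Rnase2b, a secreted ribonuclease of the eosinophil-associated family, fell evenly, with effects of -1.80 and -1.76 and a difference of -0.04 (95% interval -0.71 to 0.63). Vehicle mice ran from 12.32 to 12.97 and its Cpd2 mice from 9.50 to 11.95 in Study 1. In Study 2 the vehicle mice were at 12.24, 11.88, 12.49 and 11.94 and the Cpd2 mice at 10.58, 10.52, 10.61 and 9.80, so the groups were apart in both. The other named genes that fell in both studies were Sec14l4, Cers5, a ceramide synthase, Acox3, a peroxisomal oxidase, Mansc1, Sema3e, a semaphorin, Creb5 and the predicted gene Gm38910, listed after their values were seen, with effects from -1.93 to -0.35 in Study 1 and from -1.50 to -0.84 in Study 2.

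**Figure D2:**
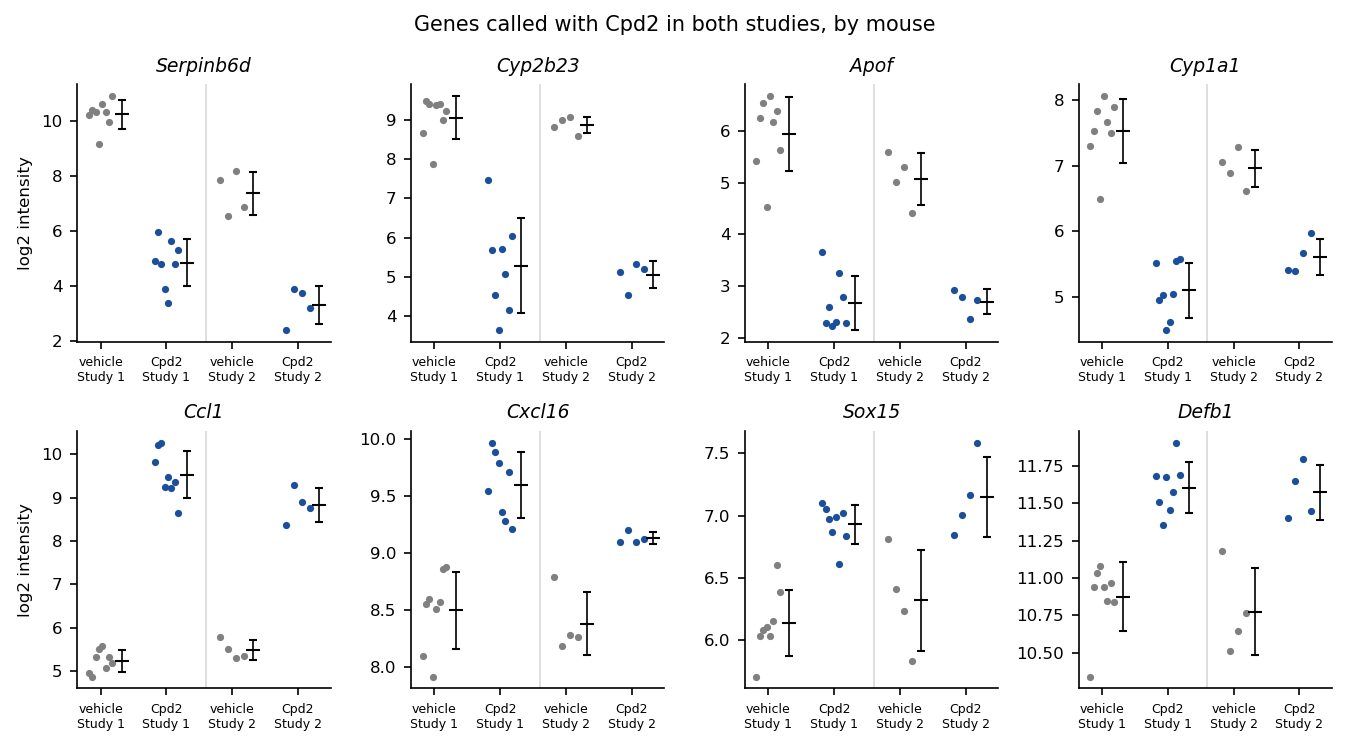
Log2 intensity by mouse of 8 genes called in both studies, with vehicle mice in grey, Cpd2 mice in blue and the mean ± SD of each group in black. In each panel all Cpd2 mice lie on 1 side of all vehicle mice of their study, for example at 8.65 to 10.27 against 4.87 to 5.57 for Ccl1 in Study 1.

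The shared rises were led by Ccl1, a chemokine that draws T cells and other leukocytes carrying its receptor CCR8. Its vehicle mice ran from 4.87 to 5.57 (median 5.24) and its Cpd2 mice from 8.65 to 10.27 (median 9.42) in Study 1. In Study 2 the vehicle mice were at 5.79, 5.51, 5.29 and 5.34 and the Cpd2 mice at 8.36, 9.30, 8.91 and 8.75. The groups were far apart in both studies. Ccl1 rose by 4.31 (SE 0.18, adjusted p = 1.49e-22) in Study 1 and by 3.35 (SE 0.25, adjusted p = 1.82e-12) in Study 2, with a difference of 0.97 (95% interval 0.34 to 1.59, adjusted p = 0.0983).

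Other immune and barrier genes rose by less and more evenly. Cxcl16, a membrane-bound chemokine, rose by 1.1 in Study 1 and 0.75 in Study 2, and its second probeset by 1.00 and 0.85. Defb1, an antimicrobial beta-defensin of epithelia, rose by 0.73 and 0.80, with a difference of -0.07 (95% interval -0.40 to 0.27). In Study 1 its vehicle mice ran from 10.34 to 11.08 and its Cpd2 mice from 11.35 to 11.91. In Study 2 its vehicle mice were at 11.18, 10.51, 10.64 and 10.76 and its Cpd2 mice at 11.40, 11.65, 11.79 and 11.45, all above the vehicle mice.

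Sox15, a transcription factor of the SOX family, rose by 0.79 and 0.83. Its Cpd2 mice lay above the vehicle mice in both studies, from 6.61 to 7.10 in Study 1 and at 6.84, 7.01, 7.17 and 7.58 in Study 2. The interval of its difference, from -0.44 to 0.36, lay within 2-fold, as did those of Cxcl16 and Defb1. Cyp2g1, a P450 known from the olfactory mucosa, was the shared gene that rose more in Study 2 by the widest margin, by 1.28 in Study 1 and 2.51 in Study 2. Its vehicle mice were low in both studies, with a median of 2.38 in Study 1 and values of 2.31, 2.03, 2.37 and 2.20 in Study 2, and its difference of -1.23 had an adjusted p of 0.111. The other genes with a symbol that rose in both were Gata6, a transcription factor, Ifi202b, Sectm1b, Zbtb7c and Pdlim4, also listed after their values were seen.

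The shared call of some genes rested on single mice of Study 2. It held in 16 of the 24 fits without 1 mouse for Ces4a, in 17 for Pnpla5 and Cxcl16, in 20 for Acox2, in 22 for Sox15 and in 23 for Aldh3a1. For Sox15 it was lost without Cpd2 mouse 4 or vehicle mouse 4 of Study 2, and for Cxcl16 without any of the 4 Cpd2 mice or without vehicle mouse 2, 3 or 4. In Ces4a 1 loss also came from vehicle mouse 6 of Study 1.

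The mice differed in how far the shared genes moved. Averaged over the 24 shared probesets that fell, the change from the vehicle mean of Study 1 ran from -2.83 in Cpd2 mouse 4 to -1.16 in Cpd2 mouse 1, and mouse 1 was the highest Cpd2 mouse of Study 1 for 21 of the 24. The 4 Cpd2 mice of Study 2 lay closer together, from -1.98 to -1.75. Over the 14 shared probesets that rose the change ran from 0.76 to 1.06 in Study 1, where mouse 1 was at 1.00, and from 1.05 to 1.2 in Study 2. The vehicle mice lay between -0.72 and 0.34 for the falling probesets, with vehicle mouse 4 of Study 1 the lowest. The probesets were chosen for moving in these mice, so these means describe the spread between mice and are no further evidence of the effect.

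The mice given Cpd6 in Study 4 and their own vehicle mice are in none of the groups compared above, so the effects share no group mean. Their arrays were part of the same fit, however. The shared calls and the calls for Cpd6 therefore rest on the same pooled spread and are not fully independent. Cpd6 in Study 4 changed 943 of all tested probesets (3.28%), of which 765 were lower (2.66%) and 178 higher (0.618%). It lowered 22 of the 24 shared probesets that fell with Cpd2, and all 24 were lower by sign. Of the 14 that rose with Cpd2 it raised 4, and 13 were higher by sign. For Akr1c21 and Serpinb6e, which fell more in Study 2, the effect of Cpd6 in Study 4 was -3.39 and -3.66, and for Ccl1 it was 2.71. For Cxcl16 it was 0.31 (adjusted p = 0.35) and for Sox15 it was 0.07 (adjusted p = 0.88).

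Most probesets that changed in Study 1 moved little in Study 2. The 2758 that rose in Study 1 had a median effect of 0.44 there and 0.10 in Study 2, where 71.8% were higher against 53.9% of all tested. The 2248 that fell in Study 1 had a median of -0.60 there and 0.02 in Study 2, where 46.4% were lower against 46.1% of all tested. Of the 4968 probesets called in Study 1 and not in Study 2, the difference itself was called for 193. For the other 4775 (96.1%) it was not called, so these data do not show that the effect differed. The median SE was 0.13 for the effect in Study 1, 0.18 in Study 2 and 0.23 for the difference. Over all tested probesets the 2 effects had a Pearson r of 0.15 and a Spearman rho of 0.09, given as a description of probesets that share arrays.

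The 119 probesets with a more negative difference had a median effect of -0.98 in Study 1 and 0.34 in Study 2, and 114 of them were called lower in Study 1. For 80 of these 119 the Cpd2 mice of Study 1 were called lower than those of Study 2 (11.3% of all tested probesets differed between these groups in either direction), and for 39 the vehicle mice of Study 1 were called higher (6.46% in either direction). The 90 with a more positive difference had a median effect of 0.68 in Study 1 and -0.22 in Study 2, with 80 called higher in Study 1. For 47 of these 90 the vehicle mice of Study 1 were called lower than those of Study 2, and for 38 the Cpd2 mice were called higher. These counts use the same arrays as the difference and show only which groups lay apart.

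The most negative difference of a named gene was that of Xirp2. This actin-binding protein of striated muscle had vehicle mice from 7.07 to 9.87 (median 9.25) and Cpd2 mice from 1.98 to 8.01 (median 5.65) in Study 1. In Study 2 its vehicle mice were at 8.13, 8.52, 8.02 and 8.11 and its Cpd2 mice at 9.23, 8.40, 8.81 and 7.61. The groups overlapped in both studies, and the Cpd2 mice of Study 1 spread over a far wider range than any other group. The effect was -3.60 (SE 0.52) in Study 1 and 0.32 (SE 0.74, adjusted p = 0.963) in Study 2, with a difference of -3.91 (95% interval -5.74 to -2.09, adjusted p = 0.0321) that passed in 15 of the 24 fits without 1 mouse. Nexn, which binds actin filaments in muscle, had a difference of -1.99 for its brighter probeset (in 21 of the 24 fits) and -2.45 for the other. Myf5, a transcription factor of muscle precursors, had effects of -1.89 and 0.26 and a difference of -2.15 (adjusted p = 0.0403, in 9 of the 24 fits).

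The list of skeletal muscle markers fell as a whole in Study 1 and in no part in Study 2. All 28 tested members were lower in Study 1, where 9.12% of all genes were, with effects from -3.95 to -1.30 and a median of -2.59. None was called in Study 2, where 0.17% of all genes fell, and the effects ran from -0.24 to 0.32 with a median of 0.02. The difference was called for 1 of 28, Xirp2, against 0.483% of all genes for a more negative difference, and its median was -2.64. At an unadjusted p under 0.05 the difference was more negative for all 28, against 15.4% of all tested probesets in either direction. Myh4, the heavy chain of fast myosin, had effects of -3.95 and -0.10, and its difference of -3.85 had an adjusted p of 0.161. Its Cpd2 mice in Study 1 ran from 3.17 to 12.92 and its 4 Cpd2 mice in Study 2 were at 12.82, 12.10, 12.03 and 11.99.

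The mean level of these markers differed widely between single mice of Study 1. Cpd2 mice 3, 7 and 4 stood at 5.37, 6.23 and 7.0, and Cpd2 mouse 8 at 11.52. The vehicle mice stood between 9.61 and 11.84, with mouse 4 the lowest, and all 8 mice of Study 2 between 11.04 and 11.80. Without Cpd2 mice 3, 4 and 7 of Study 1 the median difference of the list was -1.04, the number of probesets called for the difference was 11 in place of 209, and the number changed by Cpd2 in Study 1 was 2479. With the muscle level as a covariate 1 probeset was called for the difference and 1583 for Study 1, while the shared probesets numbered 46 and 41 under these alternatives, which were chosen after seeing the data.

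**Figure D3:**
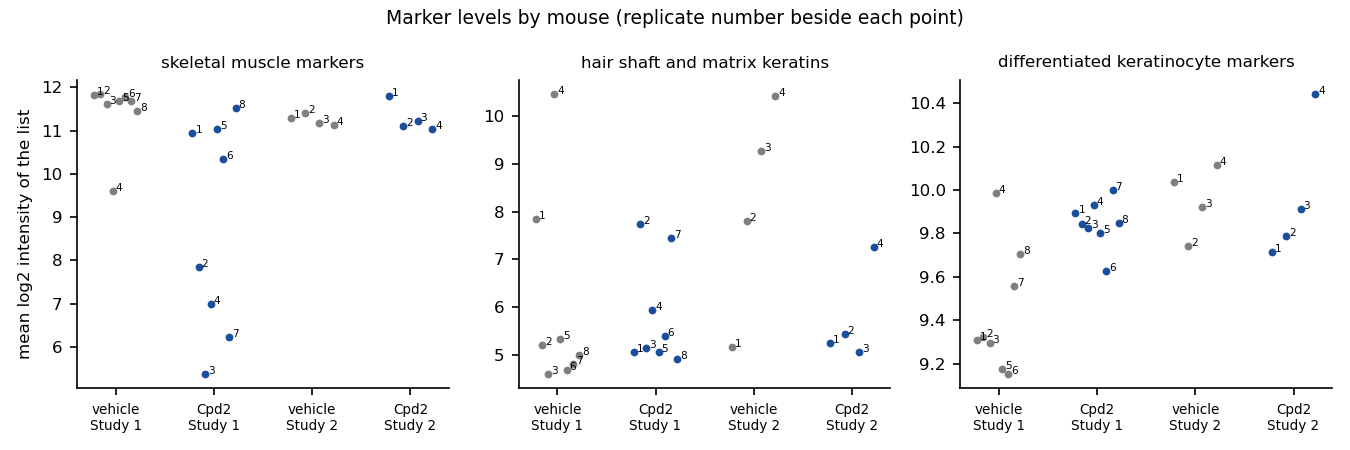
Mean log2 intensity per mouse over skeletal muscle markers, hair shaft and matrix keratins, and markers of differentiated keratinocytes, with vehicle mice in grey, Cpd2 mice in blue and the replicate number beside each point. Cpd2 mice 3, 4 and 7 of Study 1 are lowest in muscle markers, at 5.37 to 7.0, and vehicle mouse 4 of Study 1 is highest in hair keratins, at 10.46.

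Other named genes with a more negative difference were not on the muscle list. Gucy1a2, a subunit of the soluble guanylate cyclase that senses nitric oxide, had effects of -1.66 and 0.62. Vehicle mice ran from 5.34 to 6.85 and its Cpd2 mice from 3.65 to 6.22 in Study 1, and in Study 2 its vehicle mice were at 5.11, 5.83, 5.57 and 5.02 and its Cpd2 mice at 6.48, 6.05, 6.55 and 4.93. The groups overlapped in both studies, and the difference of -2.28 (adjusted p = 0.016) passed in 23 of the 24 fits. Zfp979, a zinc finger gene, had effects of -1.47 and 0.70 and a difference of -2.16 (95% interval -2.98 to -1.35, adjusted p = 0.0115), which passed in all 24 fits. Without the 3 mice lowest in muscle markers it was -1.93 (adjusted p = 0.0262), and with the muscle level as a covariate it was -1.6 and did not pass (adjusted p = 0.123). On the 24 arrays alone the adjusted p of this difference was 0.171.

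Odf3l2 had effects of -1.53 and 0.53 and a difference of -2.06 (adjusted p = 0.016, in 23 of the 24 fits). Its vehicle mice ran from 6.01 to 8.19 in Study 1 and stood at 5.05, 5.59, 5.64 and 4.96 in Study 2, while the Cpd2 mice of the 2 studies differed by -0.02. Mlf1 had effects of -2.56 and 0.05, Smtnl2 of -1.90 and 0.05, and Klhl30 of -2.09 and 0.00. With the muscle level as a covariate their differences were -0.85, -0.66 and -0.67, from -2.61, -1.94 and -2.09, and none passed. Each passed in 7 or 8 of the 24 fits without 1 mouse, and the second, dimmer probeset of Klhl30 had a difference of -0.02.

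Some genes on the list of sebaceous gland markers, or chosen by the study as markers of gland atrophy, fell more in Study 1 with a called difference. Gabra4, a subunit of the GABA-A receptor, had vehicle mice from 5.28 to 6.80 (median 6.31) and Cpd2 mice from 3.00 to 4.46 (median 3.53) in Study 1. In Study 2 its vehicle mice were at 6.06, 5.52, 5.57 and 4.95 and its Cpd2 mice at 4.52, 4.41, 4.46 and 4.41. The groups were apart in both studies. The effect was -2.68 (SE 0.18, adjusted p = 5.11e-15) in Study 1 and -1.08 (SE 0.25, adjusted p = 0.0536) in Study 2, and the difference of -1.61 (95% interval -2.23 to -0.98, adjusted p = 0.0136) passed in all 24 fits without 1 mouse. On the 24 arrays alone the adjusted p of the difference was 0.171.

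Hsd17b2, which inactivates estradiol and testosterone by oxidation, had effects of -2.08 and -0.76 (adjusted p = 0.389 in Study 2). Its Cpd2 mice lay below the vehicle mice in both studies, from 6.18 to 8.17 against 8.46 to 9.51 in Study 1, and at 7.45, 7.81, 8.11 and 8.23 against 8.71, 8.46, 8.70 and 8.76 in Study 2. The difference of -1.32 (adjusted p = 0.0403) passed in 11 of the 24 fits. Ppp1r3c, which brings protein phosphatase to glycogen, had effects of -1.44 and 0.01 and a difference of -1.45 (adjusted p = 0.0463, in 7 of the 24 fits). With the muscle level as a covariate the differences of Gabra4, Hsd17b2 and Ppp1r3c were -1.14, -1.02 and -0.85, and none passed.

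**Figure D4:**
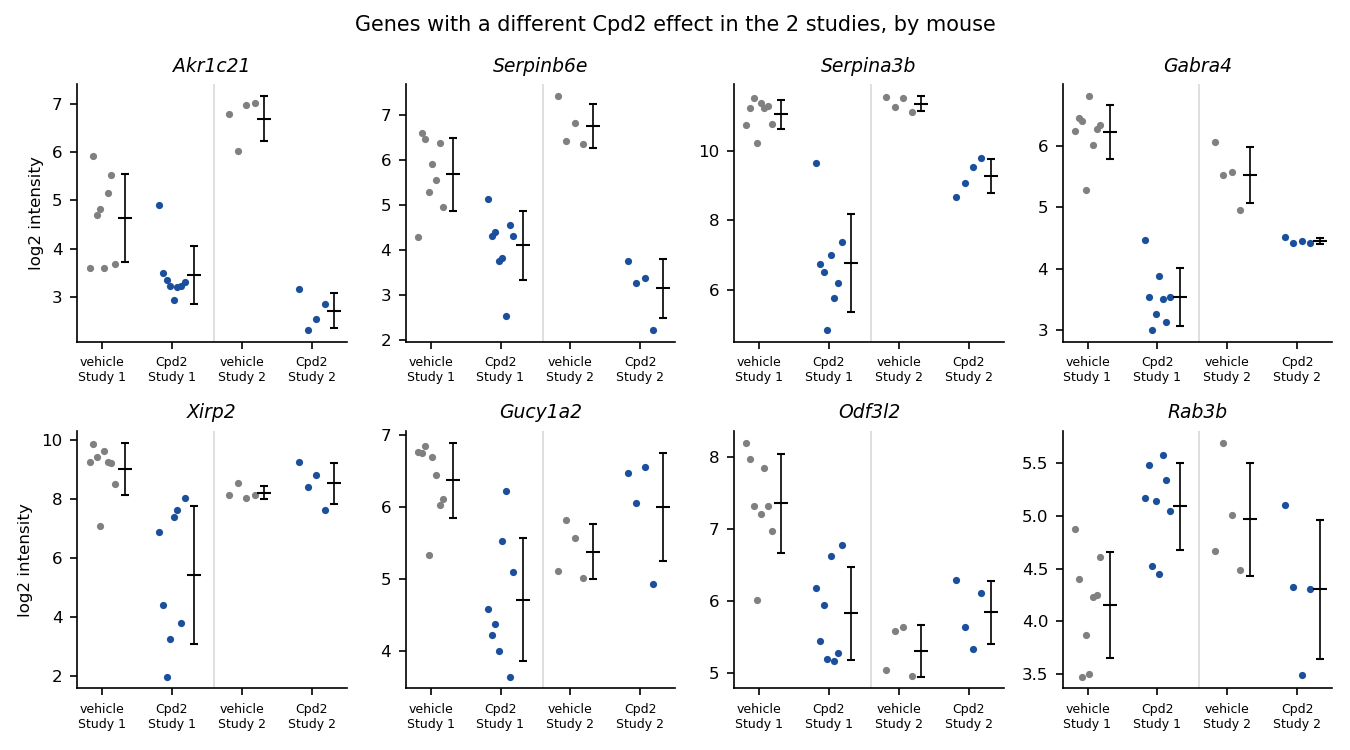
Log2 intensity by mouse of 8 genes whose Cpd2 effect differed between the studies, with vehicle mice in grey, Cpd2 mice in blue and the mean ± SD of each group in black. The vehicle mice of Study 1 lie lower than those of Study 2 for Akr1c21 (medians near 4.76 against 6.02 to 7.01), whereas for Serpina3b the vehicle mice overlap and the Cpd2 mice of Study 1 lie lower, with a median of 6.64.

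Among the positive differences of named genes besides Akr1c21 and Serpinb6e, Rab3b, a small GTPase of vesicle release, had effects of 0.94 and -0.66. Vehicle mice ran from 3.47 to 4.87 and its Cpd2 mice from 4.45 to 5.58 in Study 1. In Study 2 its vehicle mice were at 4.67, 5.70, 5.01 and 4.49 and its Cpd2 mice at 5.10, 4.32, 3.49 and 4.31, and the groups overlapped in both studies. The difference of 1.6 (95% interval 0.86 to 2.35, adjusted p = 0.0321) passed in 17 of the 24 fits. Ccdc63 had effects of 1.04 and -0.29 and a difference of 1.34 (adjusted p = 0.0268, in 21 of the 24 fits), with all Cpd2 mice of Study 1, from 5.64 to 6.16, above all vehicle mice, from 4.0 to 5.39.

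Gng4, a gamma subunit of G proteins, had effects of 0.92 and -0.20 and a difference of 1.12 (in 17 of the 24 fits). Mefv, which encodes the inflammasome protein pyrin, had effects of 0.75 and -0.32, and Vps8, a subunit of an endosomal tethering complex, of 0.54 and -0.67. The difference passed in 9 of the 24 fits for Mefv and in 13 for Vps8. Col8a2, a chain of type VIII collagen, and Fabp1, a fatty acid-binding protein best known from liver, passed for the difference without passing in either study, with effects of 0.25 and -0.87 for Col8a2 and of 0.32 and -0.69 for Fabp1. Fabp1 was dim in all groups, between 2.05 and 3.83, and passed in 20 of the 24 fits, and Col8a2 passed in 9. Amy2a5, a pancreatic amylase, had effects of 0.42 and -0.55 and a difference of 0.97 (in 10 of the 24 fits). Lcat, which esterifies cholesterol in plasma lipoproteins, had effects of 0.59 and -0.37 and a difference of 0.96 (adjusted p = 0.045, in 10 of the 24 fits).

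Of 31 tested genes of fatty acid synthesis and desaturation, 22 fell and 1 rose in Study 1, against 9.12% and 11.2% of all genes. In Study 2 the list held 1 rise, where 0.0914% of all genes rose. Its median effects were -0.42 and -0.10, against 0.04 and 0.03 over all genes. The difference was called for none of them and its median was -0.36, against 0.02 over all genes. At an unadjusted p under 0.05 the difference was more negative for 17 of the 31 and more positive for 0. Of all tested probesets 15.4% passed at this level in either direction. Scd3, a stearoyl-CoA desaturase of the sebaceous gland, had effects of -3.68 and -1.81 (adjusted p = 0.15 in Study 2). Its Cpd2 mice in Study 2, at 8.06, 7.67, 8.52 and 8.52, lay below all 4 vehicle mice, at 10.07, 10.07, 10.20 and 9.66, and its difference of -1.87 had an adjusted p of 0.0983.

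Scd4, a related desaturase, ran the other way, with effects of 0.50 (adjusted p = 0.109) in Study 1 and 1.54 (adjusted p = 0.0105) in Study 2. Its Cpd2 mice in Study 2, at 6.87, 7.21, 7.57 and 7.40, lay above all vehicle mice, at 5.99, 5.14, 6.12 and 5.62. Elovl5, an elongase of polyunsaturated fatty acids, had effects of -0.79 and -0.44 (adjusted p = 0.0577 in Study 2), with an interval of the difference from -0.61 to -0.10.

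Over all genes 9.12% fell and 11.2% rose in Study 1, and 0.17% fell in Study 2. Of 19 genes of cholesterol synthesis 11 fell and 1 rose in Study 1 and none was called in Study 2, with medians of -0.35 and -0.08. Hsd17b7, a reductase of this pathway, had effects of -1.01 and -0.36 and a difference of -0.65 (adjusted p = 0.0729). Of 36 genes of peroxisomal lipid metabolism 15 fell in Study 1 and 2 in Study 2, both of them shared (Acox2 and Acox3). The difference was called more negative for 2 of the 36, neither of them Acox2 or Acox3, against 0.483% of all genes. The medians were -0.20 and 0.07. Hacl1, which splits 2-hydroxy fatty acids, had effects of -0.61 and 0.14, and its difference was not called. Of 22 genes of mitochondrial fatty acid oxidation 10 fell in Study 1 and none in Study 2. Of 32 genes of sphingolipid metabolism 9 rose and 6 fell in Study 1, with a median of 0.11, and 1 fell in Study 2. Cpt1b, the muscle form of carnitine palmitoyltransferase, had effects of -2.14 in Study 1 and 0.20 in Study 2. With the muscle level as a covariate the calls in Study 1 over all tested probesets went from 5006 to 1583. In that fit 9 of the 31 genes of fatty acid synthesis were called in Study 1 in place of 23, and 6 of 19 for cholesterol synthesis in place of 12. For peroxisomal metabolism 8 of 36 were called in place of 15, for mitochondrial oxidation 2 of 22 in place of 10, and for sphingolipids 11 of 32 in place of 15. The muscle level was itself lower in the Cpd2 mice than in the vehicle mice of Study 1, with means of 8.79 and 11.44. Its part in these calls therefore cannot be told apart from that of the compound.

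Dgat1 itself, the target of the compound, was lower by 0.60 in Study 1 (adjusted p = 0.000242) and by 0.03 in Study 2 (adjusted p = 0.99). Its vehicle mice ran from 9.85 to 11.10 and its Cpd2 mice from 9.74 to 10.66 in Study 1. In Study 2 its vehicle mice were at 10.74, 10.89, 10.74 and 10.42 and its Cpd2 mice at 10.51, 10.66, 10.73 and 10.77. The groups overlapped in both studies, and the difference of -0.58 (95% interval -1.0 to -0.15) had an adjusted p of 0.147. Dgat2, the other enzyme of this step, had effects of -0.09 and 0.21, neither called. Of the 19 genes of the list of acyltransferases 3 rose, among them Agpat4 by 0.87, and 5 fell in Study 1, against 11.2% and 9.12% of all genes. None of the 19 was called in Study 2, and the difference was called for Lcat alone, against 0.3% of all genes for a more positive difference.

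Of 23 sebaceous gland markers 13 fell and 1 rose in Study 1 and 1 fell in Study 2, Aox4. Over all genes 9.12% fell and 11.2% rose in Study 1, and 0.17% fell in Study 2. The medians of the list were -0.44 and -0.08, and the difference was called for Ppp1r3c, against 0.483% of all genes for a more negative difference. With the muscle level as a covariate 6 of the 23 were called in Study 1, with a median of -0.19. Without the 3 mice lowest in muscle markers 9 were, with a median of -0.28. Over all tested probesets these fits called 1583 and 2479 in Study 1, in place of 5006. Of 35 tested genes that the study had chosen as markers of gland atrophy, all 35 were called in Study 1 (11 higher, 24 lower), 15 in Study 2 (5 higher, 10 lower), and these 15 were shared. The study chose them on these mice in both studies, so the counts are no independent evidence of their direction. The difference was called for 2 of them, Hsd17b2 and Gabra4. Of the 25 tested P450 genes of families 1 to 4, 4 rose and 6 fell in Study 1, where 11.2% of all genes rose and 9.12% fell, and 3 were shared, Cyp2b23, Cyp1a1 and Cyp2g1. Cyp2j12 had effects of -2.31 and -1.08, with its mice apart in both studies and a difference of -1.23 (adjusted p = 0.0753).

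**Figure D5:**
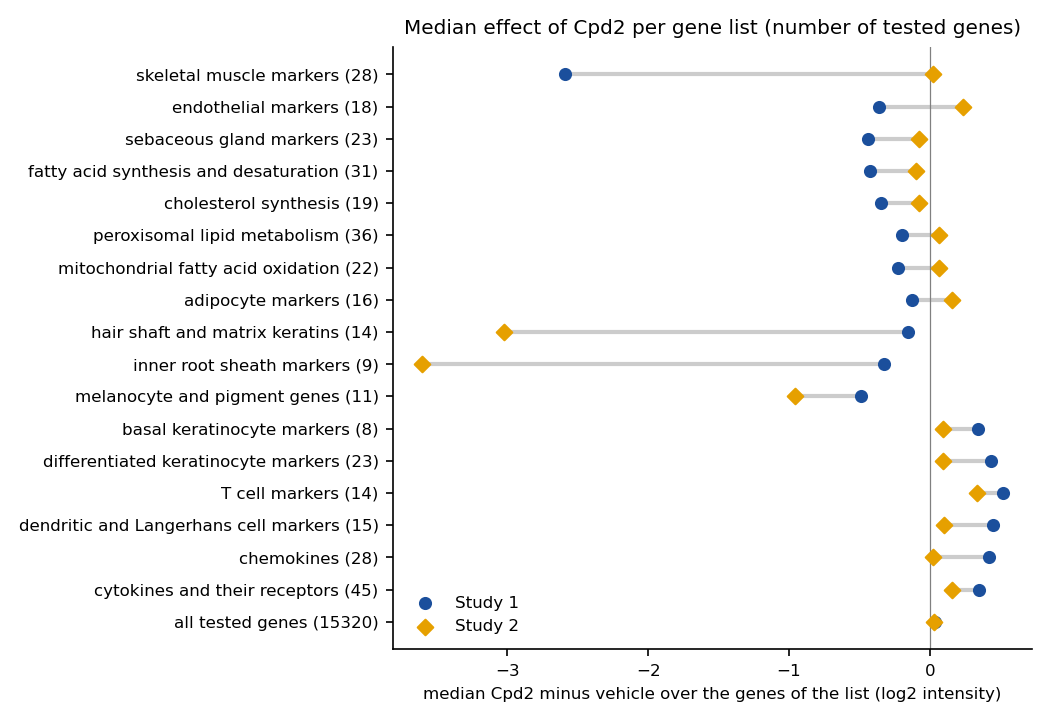
Median effect of Cpd2 in log2 intensity over the tested genes of each list, with Study 1 as blue circles, Study 2 as yellow diamonds and the number of tested genes in parentheses. Skeletal muscle markers stand at -2.59 in Study 1 and 0.02 in Study 2, hair shaft and matrix keratins at -0.15 and -3.02, and all genes near 0 in both.

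Of 23 markers of differentiated keratinocytes 15 rose in Study 1, where 11.2% of all genes rose, and none was called in Study 2, with medians of 0.43 and 0.09 and a median difference of 0.48. Lce1c and Lce1a1, proteins of the cornified envelope, rose by 1.08 and 1.02 in Study 1 and had effects of 0.28 and 0.26 in Study 2, with adjusted p values of 0.0716 for both differences. For Lce1c the vehicle mice of Study 1, from 8.86 to 9.95, lay below those of Study 2, at 10.83, 10.65, 10.08 and 10.27. Over the whole list the vehicle mice had a mean level of 9.44 in Study 1 and 9.95 in Study 2, and the Cpd2 mice of 9.85 and 9.96. Tgm1, the transglutaminase that cross-links this envelope, had effects of 0.74 and -0.17. Of 8 basal keratinocyte markers 5 rose in Study 1 and none was called in Study 2.

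Of 14 T cell markers 8 rose in Study 1, where 11.2% of all genes rose, and none was called in Study 2, with medians of 0.52 and 0.33. Ctla4, an inhibitory receptor of T cells, had effects of 1.21 and 0.56, and Cd4, the co-receptor of helper T cells, of 0.70 and -0.11. Of 15 markers of dendritic and Langerhans cells 10 rose in Study 1 and none was called in Study 2. With the muscle level as a covariate 4 of the T cell and 1 of the dendritic cell markers were called in Study 1, and without the 3 mice lowest in muscle markers 5 and 4. Over all tested probesets these fits called 1583 and 2479 in Study 1, in place of 5006. Of the other leukocyte lists, 2 of 14 macrophage markers, 1 of 5 B cell markers and 3 of 9 mast cell markers rose in Study 1, and of 10 neutrophil markers 2 rose and 2 fell. Cd86, a costimulatory ligand, had effects of 0.58 and -0.08. The adjusted p of the difference was 0.167 for Ctla4, 0.08 for Cd4 and 0.104 for Cd86.

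Of 28 chemokines 13 rose and 1 fell in Study 1, where their median was 0.42, and 2 rose in Study 2, Ccl1 and Cxcl16, both shared, with a median of 0.02. Over all genes 11.2% rose and 9.12% fell in Study 1, and 0.0914% rose in Study 2. Ccl22, which draws T cells and is made by dendritic cells, had effects of 1.81 and 0.98, and all Cpd2 mice lay above the vehicle mice in both studies, at 9.42, 9.60, 9.35 and 9.50 against 9.23, 8.71, 8.16 and 7.87 in Study 2. Ccl17, which shares its receptor, had effects of 1.2 and -0.08. Of 45 cytokines and their receptors 20 rose and 1 fell in Study 1 and none was called in Study 2. Il23a had effects of 1.40 and 0.23 and Il1a of 0.99 and 0.04. With the muscle level as a covariate 5 of the chemokines were called in Study 1 in place of 14, and 17 of the cytokines and receptors in place of 21. Over all tested probesets this fit called 1583 in place of 5006. No difference was called in either list. At an unadjusted p under 0.05 it was more positive for 9 of the 28 chemokines and 16 of the 45 cytokines and receptors. It was more negative for 0 and 2, against 15.4% of all tested probesets in either direction.

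Of 18 tested serpins on a list that held neither Serpina3b nor Serpinb6e, 6 rose and 2 fell in Study 1, against 11.2% and 9.12% of all genes. Serpinb7, an inhibitor of the epidermis, had effects of 1.11 and 0.32. Of 18 endothelial markers 8 fell in Study 1, where 9.12% of all genes fell, and none was called in Study 2, with medians of -0.36 and 0.24. With the muscle level as a covariate 0 of them were called in Study 1, and without the 3 mice lowest in muscle markers 1 was. Over all tested probesets these fits called 1583 and 2479 in Study 1, in place of 5006. Tie1, a receptor of vessel walls, had effects of -0.42 and 0.41 and a difference of -0.83 (adjusted p = 0.0732). None of the 16 adipocyte markers was called in either study, with medians of -0.13 and 0.15.

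No hair follicle gene on the lists passed the test of the difference. Over 14 hair shaft and matrix keratins the median effect was -0.15 in Study 1 and -3.02 in Study 2, and over 9 markers of the inner root sheath it was -0.32 and -3.60. Of these 23 genes 1 was called in either study, Gata3 in Study 1. The mice of a group spread over a wide range. The mean level of the shaft keratins was 5.17, 7.80, 9.26 and 10.41 in the vehicle mice of Study 2 and 5.25, 5.44, 5.06 and 7.26 in its Cpd2 mice. In Study 1 vehicle mouse 4 stood at 10.46 and the other 7 vehicle mice between 4.60 and 7.85. Krt33a, a keratin of the hair shaft, had values of 4.77, 9.09, 11.56 and 12.71 in the vehicle mice of Study 2 and a difference of 3.90 whose interval ran from -0.53 to 8.34. Krt27 and Krt71, keratins of the inner root sheath, had differences of 3.58 and 3.40 with adjusted p values of 0.55 and 0.505. These 3 were named after their values were seen.

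With the level of the shaft keratins as a covariate 169 probesets were called for the difference, 113 more positive and 56 more negative. Of the 209 called without it, 107 were still called, and without it 90 were more positive and 119 more negative. The part of the muscle and hair levels in the differences was otherwise not tested.

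The 12 probesets called in Study 2 and not in Study 1 included 8 named genes, given here after their values were seen. Krt75, a keratin of the follicle's companion layer, had an effect of -2.26 in Study 2, where its Cpd2 mice at 7.94, 7.90, 7.84 and 8.96 lay below the vehicle mice at 9.45, 9.95, 10.82 and 11.44, and of -0.18 in Study 1. Ednrb, the endothelin receptor of melanocytes, had effects of -0.96 in Study 2 and -0.21 in Study 1. Gsdma2, of the gasdermin family, had effects of 1.84 and 0.56, and Hsd17b13, a lipid droplet protein, of 1.84 and 0.71. Scd4 is given above. Spink6, a protease inhibitor of skin, had effects of -1.02 and -0.09, Hamp2, of the hepcidin family, of -2.98 and -1.27, and Eps8, an actin regulator, of -0.67 and -0.13. The difference was called for none of these 8, with the lowest adjusted p, 0.055, for Spink6.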

How the data were processed

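RNA from skin of 24 mice, 1 array each, was analysed. Per the labels, the authors made the intensities with the RMA algorithm, whose version is not given in the sources used here. The deposited table holds linear intensity values for 38385 probesets, with array medians from 27.0 to 28.7 in these mice. RMA was run by the authors over arrays, so levels are relative. Arrays have no read depth, and the number of mice limits the precision. No 2 arrays held identical values. Each probeset's gene came from the platform annotation, which gives 24478 probesets 1 symbol, 65 several and 13842 none.

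Log2 intensities were computed, and dim probesets were left out (mean below 2.93, the 25th percentile), which kept 28789, of which 19951 name 1 of 15320 genes. A single linear model with a mean for each of the series' groups was fitted to all 48 arrays (limma 3.58.1, R 4.3.3). Variances were moderated by empirical Bayes with a trend on intensity, and p-values were adjusted by the Benjamini-Hochberg method across the 28789 probesets. Calls were made at an adjusted p under 0.05, and intervals are 95%. Nothing says how mice relate to batches, so the p-values measure the spread between these arrays. A gene was represented by its probeset of highest mean.

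Named genes were the 10 most positive and 10 most negative called differences, up to 10 rises and 10 falls shared with mice apart in both studies, in each list described the 4 members with the largest difference among those called in a study or for the difference, the genes the paper names, and those said to be chosen after their values were seen. Not all that the rule allows are printed. The members and lists were chosen with earlier results of these data known. The paper's probe-level absent call was not repeated. The fit was tested on simulated data. Promoters were taken from RefSeq (GRCm38.p6) and aligned with Biopython 1.88. The alternatives were other filters, scalings, an offset of 16, 24 arrays, each study on its own, array weights, a replicate block, unmoderated fits, the methods' threshold (p under 0.01 and fold over 1.2), and leaving out each mouse.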

Additional observations from a re-analysis of the deposited data

Results flagged for a closer look

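For 24 named genes the effect of Cpd2 differed between the studies by the test of the difference itself, with values in log2 intensity, Study 1 minus Study 2. The difference was 2.80 for Akr1c21, 2.02 for Serpinb6e, 1.6 for Rab3b, 1.34 for Ccdc63, 1.2 for Vps8, 1.13 for Col8a2, 1.12 for Gng4, 1.07 for Mefv, 1.01 for Fabp1, 0.97 for Amy2a5 and 0.96 for Lcat. It was -3.91 for Xirp2, -2.61 for Mlf1, -2.28 for Gucy1a2, -2.18 for Serpina3b, -2.16 for Zfp979, -2.15 for Myf5, -2.09 for Klhl30, -2.06 for Odf3l2, -1.99 for Nexn, -1.94 for Smtnl2, -1.61 for Gabra4, -1.45 for Ppp1r3c and -1.32 for Hsd17b2. None of these passed on the 24 arrays alone.

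In 36 of 324 groups of values 1 mouse stood far from the others by Dixon's test, which chance alone does in about 1 group in 20. Vehicle mouse 4 of Study 1 accounted for 18 of them. It was the lowest mouse of its group for the muscle markers Myh4 (11.46), Actn3 (9.55) and Myot (7.42), for Smtnl2 (9.63), Klhl30 (6.09) and Cpt1b (5.98), and for the mean of the muscle markers (9.61). It was also apart for the lipid genes Pnpla5 (9.18), Ces4a (9.63), Hsd17b7 (10.63), Hacl1 (7.99), Cyp2j12 (6.83), Elovl5 (12.39), Dgat1 (9.85) and Dgat2 (8.98), and for Ppp1r3c (6.94), Tie1 (6.18) and Gsdma2 (2.28).

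Vehicle mouse 1 of Study 1 was apart for Defb1 (10.34), Ctla4 (4.50) and Hsd17b2 (8.46). Cpd2 mouse 1 of that study was apart for Akr1c21 (4.90) and Serpinb7 (10.22), and Cpd2 mouse 2 for the mean of the melanocyte genes (6.91). In Study 2 Cpd2 mouse 1 was apart for Klhl30 (8.32), Myh4 (12.82), Cpt1b (9.35) and the melanocyte genes (5.70), Cpd2 mouse 2 for Vps8 (4.13), and Cpd2 mouse 4 for Fabp1 (2.05), Rnase2b (9.80), Krt75 (8.96) and the mean of the hair shaft keratins (7.26). Vehicle mouse 1 of Study 2 was apart for Cxcl16 (8.79) and Il1a (6.06), and vehicle mouse 4 for Aldh3a1 (10.10).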

How the results depend on the processing

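Under other filters, quantile normalization and an offset of 16 all 4 counts stayed within 1.5 times those reported, and with array medians set equal the difference passed for 327 probesets, 82 more positive and 245 more negative against 90 and 119. On the 24 arrays alone 20 probesets passed in Study 2, 18 were shared and 1 passed for the difference. Array weights gave 150, 77 and 1931. The unmoderated model gave 10, 10 and 0 (3346 for the difference at an unadjusted p under 0.05), and a spread taken from each group on its own gave 0 (1228 unadjusted), 0 and 0 (3269 unadjusted), with 2567 in Study 1. The methods' threshold (p under 0.01 and a fold over 1.2) on a plain test of Cpd2 against vehicle within each study gave 295 in Study 2 and 93 shared, with 7 in opposite directions, and that test after Benjamini-Hochberg gave 2953 in Study 1 and 1 in Study 2. Replicate numbers did not pair the mice, with correlations from -0.24 to 0.24 between same-numbered mice, and with the replicate number as a block 3028 probesets passed in Study 1, 9 in Study 2, 9 as shared and 2 for the difference.

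Fits that each lacked 1 mouse gave 26 to 1521 probesets for the difference, 4070 to 5989 in Study 1, 24 to 84 in Study 2 and 23 to 54 shared. The lowest counts in Study 2 and of shared probesets came without Cpd2 mouse 3 of Study 2, and the highest of all 4 without vehicle mouse 4 of Study 1.

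Of alternatives chosen after seeing the data, the muscle level as a covariate gave 1583 in Study 1 and 1 for the difference, and leaving out the 3 mice lowest in muscle markers gave 2479 and 11. The hair level as a covariate gave 70 in Study 2, 56 shared and 169 for the difference. Of these differences 113 were more positive and 56 more negative, and 107 of the 209 reported were still called.

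Some uncalled differences changed sign, of which those of Myh4, Myot, Krt71 and Krt27 were large as reported, at -3.85, -3.31, 3.40 and 3.58. With array weights the difference was -0.0079 for Cyp2b23 and 0.0213 for Sox15. With the muscle covariate it was 0.27 for Aadacl4, 0.11 for Acox2, 0.24 for Myh4, 0.22 for Myot and 0.65 for Rnase2b, and without the 3 mice 0.43 for Rnase2b. With the hair covariate it was 0.0358 for Sox15, 0.073 for Rnase2b, -0.32 for Krt71 and -0.59 for Krt27. Without 1 mouse it ran from -0.26 to 0.28 for Cyp2b23, -0.20 to 0.0214 for Defb1, -0.20 to 0.13 for Sox15 and -0.24 to 0.16 for Rnase2b. The cause of these changes was not tested.

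With 4 mice per group in Study 2, the 95% interval of the difference was wider than 2-fold in some direction for many probesets, so an uncalled difference does not show like effects. Array signal gives no depth.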
